A study of Mus musculus with 6 samples.

Results

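Collagens are the main structural proteins of the extracellular matrix, and each collagen molecule is a rope of α chains, either copies of 1 chain or chains from different genes. The collagen genes described here are the protein-coding rows of the deposited table whose symbol is Col, a type number, the letter a and a chain number, such as Col12a1. There are 39 of them among 25251 genes, of which 16208 are protein-coding. By type they comprise 10 fibrillar genes, 6 genes of type IV (the basement membrane collagen), 6 FACIT genes (fibril-associated collagens with interrupted helices) and 17 genes of other types.

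The data are bulk RNA sequencing of CT26 tumours grown under the skin of BALB/c mice, with the genotype labelled as wild type (WT) in every sample. CT26 cells derive from a colon carcinoma of a mouse, so all 6 tumours come from the same line, with the host's stroma, vessels and immune cells in the same RNA. The irinotecan group holds 3 tumours from mice given irinotecan (CPT-11, a prodrug of a topoisomerase I inhibitor) at 25 mg/kg into the peritoneum, repeated at intervals of 4 days, and the control group holds 3 tumours given solvent. Dosing groups were drawn at random at a tumour volume of 100 mm3. The labels name 3 samples per group although the design text speaks of duplicates, and they do not say whether each sample is a separate mouse, how old the mice were or when the tumours were taken. Of 8 epithelial markers, Epcam, Cdx2, Vil1 and Krt19 lay between 0 and 4.84 normalized counts in every library, Cdh1 between 11.1 and 38.0, Krt8 between 37.0 and 149, Krt18 between 46.2 and 142, and Krt20, a keratin of intestinal epithelium, between 1608 and 2098.

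Each α chain winds with partner chains into a triple helix, which requires a glycine in each triplet of amino acids. Fibrillar collagens have long, unbroken helices and pack into the banded fibrils of connective tissue. Type IV collagen forms the sheet that underlies epithelium and endothelium, FACITs sit on the surface of fibrils, and type VI builds beaded microfilaments around cells. In tumours most fibrillar collagen is generally made by fibroblasts, while type IV is made by vessel-associated, epithelial and other cells.

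The glycine repeat can be read in the reference coding sequences, as 1 codon of the form GGN in each triplet of codons. One stretch is shown for each of 3 classes, since the repeat is the feature that collagen chains have in common and its unbroken length sets most fibrillar genes apart. Each line gives the first 90 bases of the longest unbroken repeat on the coding strand, 5′ to 3′, with the GGN codons in capitals (GENCODE M21, GRCm38).
Col1a2 (fibrillar): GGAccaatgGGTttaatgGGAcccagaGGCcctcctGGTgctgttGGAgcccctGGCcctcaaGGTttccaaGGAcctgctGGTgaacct
Col4a2 (type IV): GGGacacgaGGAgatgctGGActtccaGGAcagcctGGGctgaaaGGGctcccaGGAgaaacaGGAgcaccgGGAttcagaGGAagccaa
Col12a1 (FACIT): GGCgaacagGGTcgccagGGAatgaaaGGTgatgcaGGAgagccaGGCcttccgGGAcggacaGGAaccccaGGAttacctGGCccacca
The Col1a2 stretch lies at chr6:4512406-4515516 on the plus strand in exons 6 to 8, the Col4a2 stretch at chr8:11429447-11431247 on the plus strand in exons 29 to 30, and the Col12a1 stretch at chr9:79612423-79613769 on the minus strand in exons 56 to 58, with the introns left out. The repeat goes on without a break for 339 triplets in Col1a2, 66 in Col4a2 and 32 in Col12a1. In 8 of the 10 fibrillar genes it ran for 337 to 344 triplets, and in Col24a1 and Col27a1 for 216 and 217. The longest runs were 39 to 66 triplets in type IV genes, 32 to 113 in FACIT genes and 23 to 87 in the other types. The repeat of glycine and proline codons is rich in G and C: the median GC content of transcripts was 56.4% over the 25 collagen genes tested and 50.1% over all genes tested.

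Of the 39 collagen genes, 25 had a mean of at least 10 normalized counts over the 6 libraries and entered the test. Normalized counts are the authors' deposited values, read counts divided by 1 size factor per library. Where genes are compared with each other, the level is given in TPM, a measure scaled for gene length and library total that was computed from the recovered reads and the deposited gene length. Collagen genes took 0.350% ± 0.033 of all reads in controls, against 0.341% ± 0.057 in irinotecan tumours (SD, n = 3 per group), so their summed share differed by less than the spread between libraries.

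Col1a2, a chain of type I collagen, was the most abundant collagen transcript in every library. It held 20188, 22992 and 18614 normalized counts in the controls against 21191, 23617 and 25065 with irinotecan, and its log2 fold change was 0.18 (SE 0.158), or 0.25 without irinotecan replicate 1. In TPM it stood at 359.4 ± 46.2 in controls, rank 336 among all genes, and at 431 ± 28.5 with irinotecan (SD, n = 3 each). The next levels in controls were 149.9 ± 17.0 TPM for Col4a1, 112.5 ± 15.5 for Col1a1, 105.1 ± 20.0 for Col3a1, 102.1 ± 9.86 for Col8a1 and 92.1 ± 11.6 for Col4a2. From Col1a1 to Col4a2, each gene's control values overlapped those of the next in this order, while Col1a1 was above Col4a2 in each of the 3 controls. Col1a2 made up 28.4% of the summed collagen TPM in controls and 33.4% with irinotecan, and the 10 most abundant genes made up 90.8% in controls. The deposited length of Col1a2 (12426 bases) is far above that of its longest coding transcript (5348 bases), and per length of that transcript Col1a2 held 42.3% of the summed collagen level in controls and 48.4% with irinotecan.

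**Figure D1:**
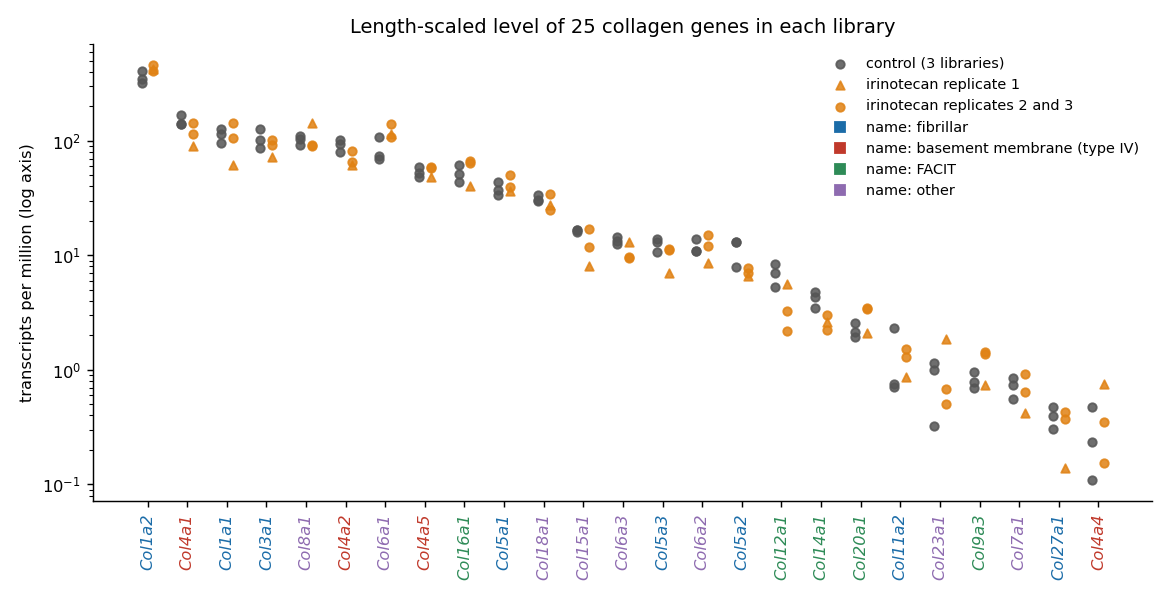
Level of the 25 tested collagen genes in TPM (vertical log axis), 1 symbol per library, genes ordered by the control mean and names coloured by class. Col1a2 lies above every other gene in all 6 libraries, and irinotecan replicate 1 (triangles) is the lowest library for Col4a1, Col1a1 and Col3a1.

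The library of irinotecan replicate 1 differed from all others, which touches most results below. Across genes, Pearson's r of its log2 values was 0.932 to 0.941 with the other libraries and 0.975 to 0.985 between those. It also held reads in fewer genes, 19040 against 20571 to 21426 in the others. Genes with exactly 1 read numbered 544 in it and 1391 to 1692 in the others, so a count of 0 for a low gene in this library says little. Relative to the mean of the controls, genes above 60% GC had a median log2 value of -0.76 in it, -0.07 in irinotecan replicate 2 and -0.03 in replicate 3. The 25 collagen genes had medians of -0.50, -0.13 and 0.03 in irinotecan replicates 1, 2 and 3, beside -0.02 for all tested genes in replicate 1. Fold changes of the tested collagen genes are therefore also given without that library, and those of other named genes and lists where leaving it out changed the sign or moved the value by more than 1.5 times.

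No collagen gene passed the threshold for irinotecan against control. With limma, a linear model fitted over all 14639 genes tested, 0 of the 25 had an adjusted p under 0.05, and 0% of all genes did. The adjusted p of the collagen genes ranged from 0.743 to 0.984. edgeR, limma-voom and DESeq2 on the recovered reads also called 0 of the 25, where DESeq2 called 0.336% of all genes (0.136% lower) and the other tools 0%. At an unadjusted limma p under 0.05, 6 were lower with irinotecan (Col12a1, Col14a1, Col5a2, Col4a2, Col6a3 and Col4a1) and 1 was higher (Col6a1), beside 3.08% and 2.68% of all genes. In normalized counts, all irinotecan libraries lay below all controls for 7 of the 25, beside 7.89% of all genes. All irinotecan libraries lay above all controls for 0 of the 25, beside 6.68%. The 7 lower genes were the 6 just named and Col15a1. In TPM the groups of Col12a1, Col6a3, Col15a1, Col4a1 and Col4a2 overlapped, while those of Col5a2 and Col14a1 did not. Since this is bulk RNA, fewer cells of a type and less RNA per cell cannot be told apart.

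The number of lower genes rests in part on irinotecan replicate 1. The log2 fold change was negative for 16 of 25 genes with all libraries, beside 51.8% of all genes, and for 13 of 25 without that library. The median over the 25 was -0.21 (-0.01 over all tested genes) and moved to -0.02 without it. Without it the normalized counts of the groups did not overlap for 7 genes that were lower and for 5 that were higher (Col1a2, Col6a1, Col16a1, Col20a1 and Col9a3), beside 13.7% and 12.8% of all genes. An unadjusted p under 0.05 was then found for 5 lower and 3 higher, beside 5.15% and 4.34%. limma and edgeR called 0 of the 25 without that library, and 0.0137% of all genes each. Without irinotecan replicate 1, 7 of the 25 genes changed sign, none of them among the 7 genes with an unadjusted p under 0.05. For the 6 lower of those this was fixed in advance, since all their irinotecan libraries lay below all controls. The higher one, Col6a1, was picked by its p-value from the same libraries, so the kept signs are no separate support.

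**Figure D2:**
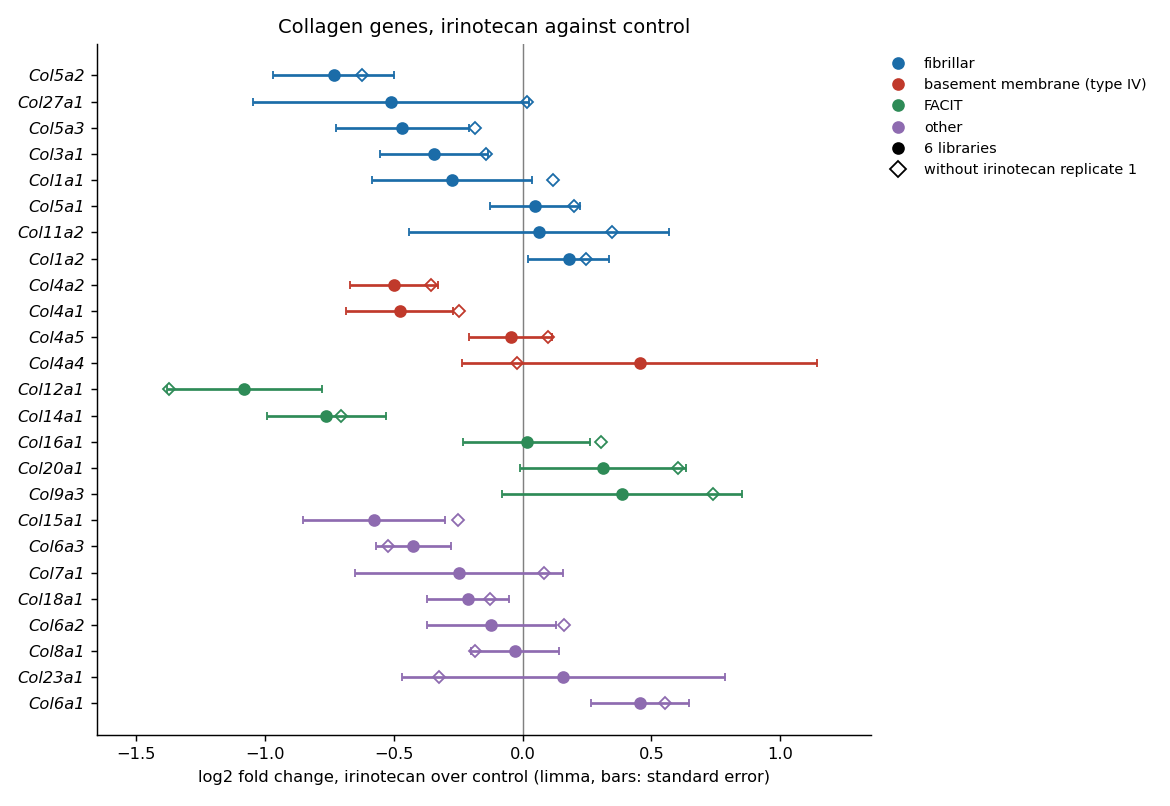
Log2 fold change of irinotecan over control (horizontal axis) for the 25 tested collagen genes, by class, from limma on 6 libraries (filled circles, bars are standard errors) and without irinotecan replicate 1 (open diamonds). Col12a1, at -1.08 and -1.37, is the lowest gene in both fits, and Col6a1, at 0.46 and 0.55, lies to the right of 0 in both.

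Among the fibrillar genes, type I and type III transcripts showed no common direction, and the type V chains differed from each other. The 8 tested members had a median log2 fold change of -0.31, 5 of them negative, and of 0.07 without irinotecan replicate 1. Col1a1, the partner of Col1a2 in type I collagen, held 3503, 3753 and 2956 normalized counts in the controls against 1623, 3281 and 4126 with irinotecan. The groups overlap: irinotecan replicate 1 is the lowest of all libraries and replicate 3 the highest. Its log2 fold change was -0.27 (SE 0.310), or 0.12 without irinotecan replicate 1. Col3a1, the chain of type III collagen, which forms fine fibrils together with type I, held 4652, 5608 and 4009 in the controls against 2820, 4651 and 3911 with irinotecan. Its irinotecan replicate 1 is again the lowest, and its log2 fold change was -0.34 (SE 0.210), or -0.14 without that library.

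Type V collagen sits inside type I fibrils and helps to start them and set their width. Col5a2 held 583, 346 and 592 normalized counts in the controls against 255, 313 and 325 with irinotecan. All irinotecan values are below the lowest control, control replicate 2, though by a small margin, and the log2 fold change was -0.73 (SE 0.236; limma adjusted p = 0.743), or -0.62 without irinotecan replicate 1. Col5a1 held 1338, 1680.2 and 1482 in the controls against 1253, 1587 and 1854 with irinotecan, which overlap, with a log2 fold change of 0.05 (SE 0.174), or 0.20 without irinotecan replicate 1. Col5a3 held 414, 330.4 and 445 in the controls against 192.0, 354 and 339 with irinotecan, which overlap as well, with a log2 fold change of -0.47 (SE 0.258), or -0.18 without irinotecan replicate 1. The low fibrillar genes Col11a2 and Col27a1, which are best known from cartilage, had means of 39.2 and 23.7 normalized counts in controls and 36.9 and 18.2 with irinotecan. The log2 fold change of Col11a2 was 0.06 (SE 0.504) and that of Col27a1 -0.51 (SE 0.535), or 0.35 and 0.02 without irinotecan replicate 1.

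Both abundant chains of type IV collagen, Col4a1 and Col4a2, had lower normalized counts in every irinotecan library than in any control. In TPM their groups overlapped, with 144.6 and 82.3 in irinotecan replicate 3 against 139.1 and 79.5 in control replicate 3. Col4a1 held 4898, 5714 and 4875 normalized counts in the controls against 2700.4, 3986 and 4713 with irinotecan, a log2 fold change of -0.48 (SE 0.207). Col4a2, its partner in the common trimer, held 2897, 3064 and 2472 in the controls against 1628, 2009 and 2379 with irinotecan, a log2 fold change of -0.50 (SE 0.170). For both genes irinotecan replicate 1 is the lowest library and replicate 3 comes close to the lowest control. Without irinotecan replicate 1 the log2 fold changes were -0.25 and -0.36, and with the trend on GC content and gene length removed they were -0.38 and -0.30. The limma adjusted p was 0.743 for each.

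The chain genes of the other type IV trimers gave other values. Col4a5, on the X chromosome, held 1520.1, 1799 and 1647 normalized counts in the controls against 1307, 1849 and 1692 with irinotecan, and the groups overlap (log2 fold change -0.05, SE 0.162, or 0.10 without irinotecan replicate 1). Col4a4 was low, at 13.4 ± 9.2 and 18.6 ± 12.2 normalized counts (SD, n = 3 each), with a log2 fold change of 0.45 (SE 0.689), or -0.02 without irinotecan replicate 1. Col4a3 and Col4a6 did not enter the test. Whether the difference of Col4a1 and Col4a2 is larger than that of Col4a5 was not tested.

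Type IV transcripts took a smaller part of the collagen RNA with irinotecan. They made up 23.1%, 23.5% and 23.6% of the summed collagen TPM in the controls and 17.1%, 19.1% and 19.7% with irinotecan, or 23.4% ± 0.27 against 18.6% ± 1.41 (SD, n = 3 each). The 3 controls lie within a narrow band and all irinotecan libraries lie below it. Without irinotecan replicate 1 the difference in means was -3.93 percentage points, and -4.73 with it. Per length of the longest coding transcript the shares were 16.0% to 16.5% in controls and 11.2% to 13.6% with irinotecan. The summed type IV TPM itself overlapped between groups, at 284.5, 331.5 and 271.1 in the controls against 201.3, 237.8 and 284.9 with irinotecan. No p-value is given, since a share over chosen genes is not an independent test. Fibrillar genes made up 50.6% ± 1.14 and 53.0% ± 1.24, FACIT genes 5.24% ± 0.173 and 5.21% ± 0.781, and other types 20.8% ± 1.21 and 23.1% ± 3.30.

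**Figure D3:**
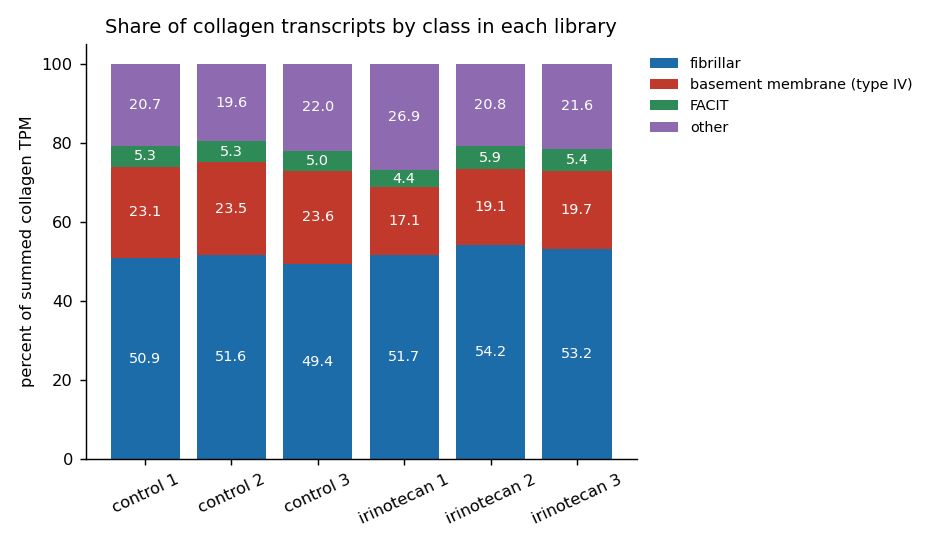
Share of the summed collagen TPM by class (vertical axis, percent) in each of the 6 libraries. The type IV share is 23.1% to 23.6% in the controls and 17.1% to 19.7% with irinotecan.

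Col4a1 and Col4a2 are transcribed away from each other on chromosome 8 of GRCm38, Col4a1 from 11312826 down to 11198423 and Col4a2 from 11312805 up to 11449287. Their annotated spans overlap by 22 bases at the 5′ ends, shown here because the genes have similar fold changes and a common start region (RefSeq, GRCm38.p6, plus strand, capitals mark a GC box):
Col4a1 and Col4a2, chr8:11312805-11312826: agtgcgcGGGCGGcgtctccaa
The GC box, GGGCGG on either strand, is a binding sequence of Sp1. In the windows of 250 bases before to 50 after the start, it occurs 1 time for Col4a1 and 3 times for Col4a2, and CCAAT on either strand occurs 1 time in each window. Of all 32851 RefSeq windows of that length, 35.7% hold GGGCGG and 37.4% hold CCAAT, so both are common. The table matched 30 of the 39 genes, in 32 windows. Reads in the overlap cannot be assigned to either gene without the strand setting, which neither labels nor notes name.

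The tested FACIT genes comprised a lower pair and 3 genes that lay above all controls in irinotecan replicates 2 and 3 but not in replicate 1. Col12a1 had the lowest log2 fold change of all tested collagen genes, and Col14a1 the next; their products decorate type I fibrils and contain fibronectin-type repeats. Col12a1 held 599, 367 and 506 normalized counts in the controls against 341, 157 and 219 with irinotecan, a log2 fold change of -1.08 (SE 0.301). All irinotecan libraries lie below all controls in these counts, and here irinotecan replicate 1 is the highest irinotecan library. In TPM it lay above control replicate 2 (5.59 against 5.34). Without irinotecan replicate 1 the log2 fold change was -1.37, with a limma adjusted p of 0.0694. Estimated library weights were 0.127 for irinotecan replicate 1 and 1.19 to 1.88 for the other libraries, so they came near to leaving that library out. With these weights limma called Col12a1 lower (-1.41, adjusted p = 0.0167), where 0.355% of all genes were called. DESeq2 on the recovered reads gave an adjusted p of 0.130 with all libraries and 2.97e-06 without irinotecan replicate 1, where it called 2 of 24 collagen genes, both lower, beside 0.563% of all genes lower and 1.1% in either direction. The adjusted p of Col12a1 over all alternatives ran from 2.97e-06 to 0.989, the highest without control replicate 1.

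Col14a1 held 112, 153 and 142 normalized counts in the controls against 72.9, 73.2 and 92.2 with irinotecan, a log2 fold change of -0.76 (SE 0.231). The groups do not overlap, and the value was -0.71 without irinotecan replicate 1. By contrast Col16a1, the most abundant FACIT gene, held 1604, 1879 and 1392 in the controls against 1093, 2016 and 1973 with irinotecan. Irinotecan replicate 1 is the lowest of these and the other irinotecan libraries are the highest, so the log2 fold change was 0.02 (SE 0.246) with it and 0.31 without it. The same order of libraries held for the low genes Col20a1 and Col9a3, whose log2 fold changes moved from 0.31 to 0.60 and from 0.39 to 0.74. Col12a1 and Col14a1 have transcripts of 48.6% and 50.2% GC, while Col16a1, Col20a1 and Col9a3 have 61.3%, 58.0% and 58.8%. With the trend on GC content and gene length removed, the log2 fold changes were -1.19 and -0.81 for the first 2 genes. They were 0.24, 0.47 and 0.60 for the other 3, and the part of GC content in these differences was not tested.

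The type VI chains had log2 fold changes of opposite sign. Col6a1 held 1497, 2127 and 1439.9 normalized counts in the controls against 1999, 2199 and 2697 with irinotecan, a log2 fold change of 0.46 (SE 0.190). It was the only collagen gene with an unadjusted p under 0.05 in the higher direction, and its groups overlap through control replicate 2. Col6a3, which encodes the longest type VI chain, held 740.4, 776 and 713 in the controls against 633, 533 and 503 with irinotecan, a log2 fold change of -0.42 (SE 0.145). Those groups do not overlap in normalized counts, but in TPM irinotecan replicate 1 lay above control replicate 3 (13.19 against 12.69). Without irinotecan replicate 1 the log2 fold changes were 0.55 and -0.52, and DESeq2 then called Col6a3 lower (adjusted p = 0.0352, against 0.693 with all libraries and a range of 0.0352 to 0.989 over all alternatives). Col6a2 held 425, 523 and 426 in the controls against 283, 475 and 547 with irinotecan, with a log2 fold change of -0.12 (SE 0.250) or 0.16 without irinotecan replicate 1.

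**Figure D4:**
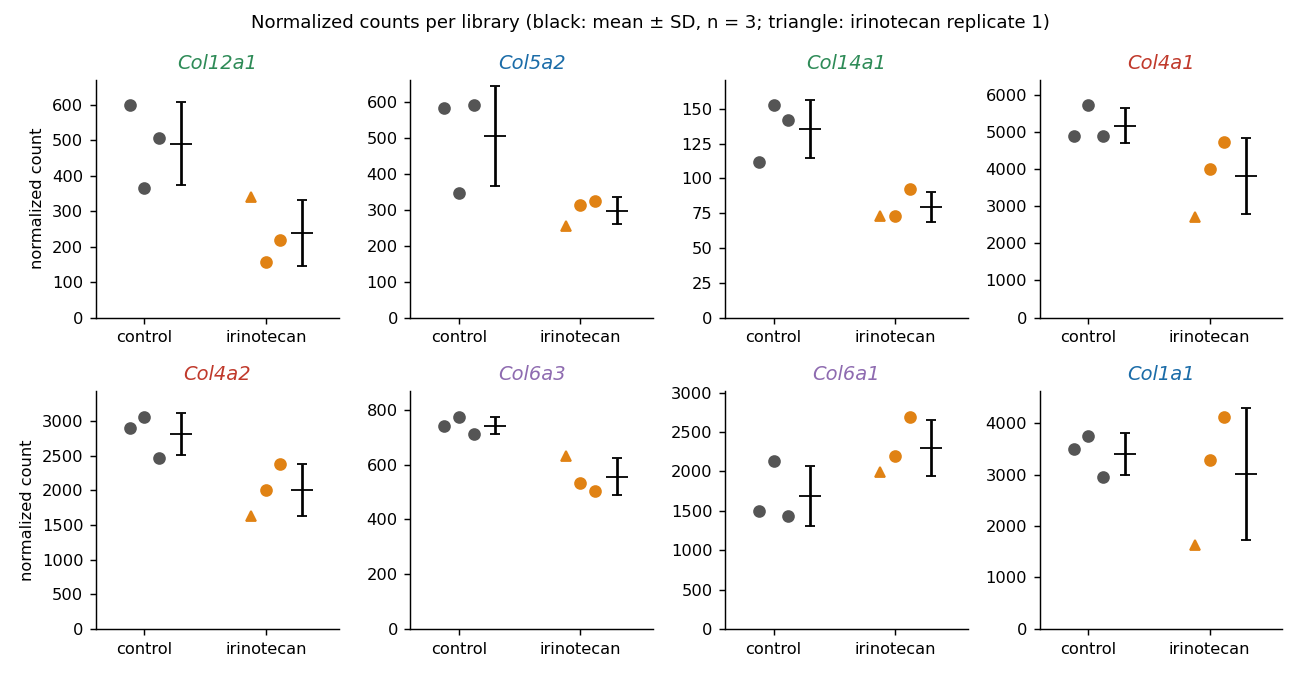
Normalized counts (vertical axes, from 0) of 8 collagen genes in the 3 control and 3 irinotecan libraries, with mean ± SD in black and irinotecan replicate 1 as a triangle. The groups do not overlap for Col12a1, Col5a2, Col14a1, Col4a1, Col4a2 and Col6a3, whereas they overlap for Col6a1 and Col1a1.

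Ratios between chains that join in the same trimer were computed per library from length-scaled levels. Such a ratio cancels library size and any difference the chains share. Of 5 pairs, Col4a1/Col4a2 was the steadiest, at 1.499, 1.65 and 1.75 in the controls against 1.47, 1.76 and 1.76 with irinotecan (exact permutation test, two-sided, p = 0.8, adjusted p = 0.8). This is the pair of which both chains had lower normalized counts in all irinotecan libraries than in any control.

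Col1a1/Col1a2 lay at 0.329, 0.309 and 0.301 in the controls and at 0.145, 0.263 and 0.312 with irinotecan, so Col1a1 had the lower level in every library. The value of irinotecan replicate 1 is the outlying one, and the exact permutation test gave p = 0.3 (adjusted p = 0.375). Type I collagen as commonly described holds more α1 than α2 chains, and the order of the transcripts here is the reverse, also per length of the longest coding transcript (0.143 to 0.156 in controls). The median GC content of annotated transcripts is 56.4% for Col1a1 and 46.2% for Col1a2, while that of the longest coding sequence is 63.0% and 59.5%.

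In 3 pairs the groups did not overlap, but Col6a3/Col6a1 and Col6a1/Col6a2 share Col6a1 and are not separate results. Col6a3/Col6a1 was 0.181, 0.134 and 0.181 in the controls against 0.116, 0.0887 and 0.0682 with irinotecan. Col6a1/Col6a2 was 6.69, 7.73 and 6.42 against 13.4, 8.80 and 9.37. Col5a1/Col5a2 was 2.59, 5.48 and 2.83 against 5.56, 5.73 and 6.44, where control replicate 2 sits next to the irinotecan libraries. Each of these gave an exact permutation p = 0.1, the smallest that 3 against 3 allows, and an adjusted p of 0.167 over the 5 pairs. The log2 differences were -0.88, 0.58 and 0.78, and without irinotecan replicate 1 they were -1.07, 0.39 and 0.83.

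**Figure D5:**
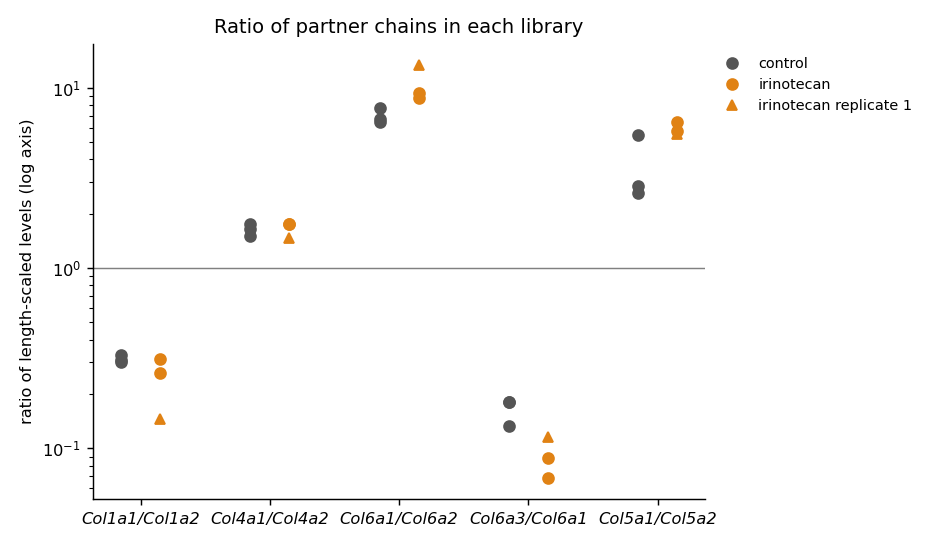
Ratio of length-scaled levels of partner chains (vertical log axis) in each library, with the grey line at 1. Col4a1/Col4a2 stays between 1.47 and 1.76 in all 6 libraries, and irinotecan replicate 1 (triangle) is the lowest for Col1a1/Col1a2 at 0.145.

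Apart from Col4a1 and Col4a2, the tested neighbours in the genome had unequal fold changes, and these differences within pairs were not tested. Col3a1 (chromosome 1, 45311538 to 45349706) and Col5a2 (45374321 to 45503282) end 24614 bases apart and had log2 fold changes of -0.34 and -0.73. Col6a2 and Col6a1 lie 85161 bases apart on chromosome 10 and had -0.12 and 0.46. Col4a5 and Col4a6 start 1308 bases apart on the X chromosome, yet Col4a5 had a mean of 1656 normalized counts in controls while Col4a6 held 0 or 1 read in each control.

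Other non-fibrillar types gave smaller or less even differences. Col8a1, a chain of the short network collagen of vessel walls, held 3782, 3234 and 4079 normalized counts in the controls against 4462, 3331 and 3153 with irinotecan, which overlap (log2 fold change -0.03, SE 0.171, or -0.18 without irinotecan replicate 1). Its partner Col8a2 had at most 2 reads in any library. Col18a1, the source of endostatin in basement membranes, held 1097, 944 and 997 in the controls against 776, 813 and 1057 with irinotecan (log2 fold change -0.21, SE 0.159, or -0.12 without irinotecan replicate 1). Col15a1, its close relative, stood at 482 ± 10.2 in the control group and 341 ± 132 in the irinotecan group (SD, n = 3 per group). Its groups did not overlap in normalized counts (log2 fold change -0.58, SE 0.277), but irinotecan replicate 3 came close to the lowest control. In TPM it lay above that control (16.9 against 15.9), and the log2 fold change was -0.25 without irinotecan replicate 1. Col7a1, which anchors skin epithelium, and the membrane collagen Col23a1 had control means of 34.1 and 22.1, and their log2 fold changes were -0.25 (SE 0.404) for Col7a1 and 0.16 (SE 0.625) for Col23a1, or 0.08 and -0.32 without irinotecan replicate 1.

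The remaining 14 collagen genes had means between 0.338 and 9.73 normalized counts and were not tested. They are Col2a1, Col24a1, Col4a3, Col4a6, Col22a1, Col6a4, Col6a5, Col6a6, Col8a2, Col10a1, Col13a1, Col17a1, Col26a1 and Col28a1, and the highest value in any library was 23.6 for Col17a1 in irinotecan replicate 1. Col6a6 had 15 reads over the 3 controls and 0 over the irinotecan libraries, and a count of 0 allows up to 3 reads, so the depth permits no firm ratio. Col2a1, the main cartilage collagen, and Col10a1, a marker of hypertrophic cartilage, had control means of 2.96 and 9.57. Col17a1, a component of skin hemidesmosomes, had 6.93.

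Collagen chains depend on many partner genes, and 108 of them were listed in 7 roles, of which 95 were tested. None had a limma adjusted p under 0.05. An unadjusted p under 0.05 was found for 13 lower and 2 higher genes, beside 3.08% and 2.68% of all genes. Of the 95, 59 had a negative log2 fold change, beside 51.8% of all genes, with a median of -0.07. Without irinotecan replicate 1 an unadjusted p under 0.05 was found for 20 lower and 3 higher, beside 5.15% and 4.34%.

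Genes that modify and fold the chains in the endoplasmic reticulum had a median of -0.06 over 16 genes, with values from -0.24 to 0.48. An unadjusted p under 0.05 was found for 0 of the 16, beside 3.08% lower and 2.68% higher of all genes. At those shares, 0 among 16 genes does not set this role apart. The collagen chaperone Serpinh1 had a log2 fold change of -0.22 (SE 0.178). Crtap, which takes part in prolyl 3-hydroxylation, had -0.24 (SE 0.182), and the isomerase Fkbp14 had 0.37 (SE 0.255). Serpinh1 had -0.056 and Crtap -0.061 without irinotecan replicate 1. Secretion genes had a median of -0.05 over 10, or -0.15 without irinotecan replicate 1, and 2 were lower at an unadjusted p under 0.05, beside 3.08% of all genes. These were Mia2, which helps load bulky collagen cargo (-0.51, SE 0.150), and Creb3l1, a transcription factor for collagen secretion (-1.15, SE 0.428), while Klhl12 had 0.30 (SE 0.199), or 0.11 without irinotecan replicate 1.

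Enzymes that trim propeptides and cross-link fibrils had a median of -0.44 over 10 genes, also without irinotecan replicate 1. An unadjusted p under 0.05 was found for 3 of the 10, all lower, beside 3.08% of all genes: the cross-linking enzyme Lox (-0.72, SE 0.186), the N-propeptidase Adamts14 (-0.53, SE 0.149) and its relative Adamts2 (-0.57, SE 0.210). For Adamts14 the controls held 706 ± 75.5 normalized counts against 489 ± 39.9 after irinotecan (SD, n = 3 per group), and its groups did not overlap.

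Matrix partners of the fibrils had a median of -0.37 over 14 genes, or -0.21 without irinotecan replicate 1, with 4 lower and 1 higher at an unadjusted p under 0.05, beside 3.08% and 2.68% of all genes. The smallest p-values in this role belonged to the basement membrane linker Nid2 (-0.90, SE 0.162) and the matricellular protein Postn (-0.91, SE 0.275), both lower, and to Tnxb, a tenascin that binds fibrillar collagen, which was higher at 361 ± 108 against 646 ± 150 normalized counts (SD, n = 3 each; log2 fold change 0.86, SE 0.268). The other two lower genes, named after their values were seen, were Tnc (-1.05, SE 0.347) and Nid1 (-0.35, SE 0.140). Collagen receptors had a median of 0.13 over 9 genes, with Itga10, an integrin subunit for collagen, at 0.49 (SE 0.206), the receptor kinase Ddr2 at 0.30 (SE 0.217) and the inhibitory receptor Lair1 at -0.35 (SE 0.374). Ddr2 had 0.049 and Lair1 0.13 without irinotecan replicate 1. Degradation genes had a median of -0.25 over 14, with the gelatinase Mmp9 (-0.98, SE 0.255), the collagenase Mmp13 (-0.97, SE 0.397) and the inhibitor Timp1 (-0.64, SE 0.278, or -0.35 without irinotecan replicate 1) lower at an unadjusted p under 0.05, beside 3.08% of all genes. Transcription and signalling genes had a median of 0.03 over 22, or -0.05 without irinotecan replicate 1. In that role Cebpb, a C/EBP factor, had -1.05 (SE 0.399), Tgfb1, the main fibrogenic cytokine, had -0.43 (SE 0.218), and the tendon factor Scx had -0.99 (SE 0.509). The values were -0.54 for Cebpb, -0.18 for Tgfb1 and -0.52 for Scx without irinotecan replicate 1.

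Markers of cells that could supply collagen RNA were compared in the same way, none had a limma adjusted p under 0.05, and their part in the collagen values was not tested. The 12 endothelial markers had a median log2 fold change of -0.65, or -0.45 without irinotecan replicate 1, 11 of them negative beside 51.8% of all genes, and summed to 2942 to 3343 normalized counts in controls and 1742, 2181 and 2579.5 with irinotecan. Pecam1 held 801, 707 and 822 in the controls against 463, 578 and 549 with irinotecan. Pericyte and smooth muscle markers had a median of -0.50 over 10 tested genes, 8 of them negative beside 51.8% of all genes. Their sums overlapped, at 2787 to 3032 against 2391 to 2884. Fibroblast markers had a median of -0.13 over 11 genes, or -0.07 without irinotecan replicate 1, with 7 negative and 4 positive, beside 51.8% of all genes negative. Pdgfra held 788, 1144 and 732 against 1181, 747 and 925. The fibroblast sums overlapped, at 23252 to 28816 against 24638 to 27841. They mostly reflect abundant genes such as Cd34, Prrx1 and Dcn, with control means of 9220, 6154 and 4836. Low markers such as Pi16, Fap and Dpt (46.0, 50.2 and 58.3) hardly enter them. These genes were named after their values were seen.

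Macrophage markers had a median of -0.55 over 8 genes, or -0.16 without irinotecan replicate 1, with sums of 24708 to 26419 against 11614 to 25776, and relative to the controls their median was -1.07 in irinotecan replicate 1, -0.19 in replicate 2 and -0.17 in replicate 3. Among defining markers of other sources, Krt14 of keratinocytes held 0 to 6.54 normalized counts, Adipoq of adipocytes 0 to 3.14 and Ckm of skeletal muscle 0 to 40.5. Other genes of these lists, named after their values were seen, were higher: Acta1 of muscle held 10.5 to 410.5, Fabp4 of adipocytes and other cells 97.5 to 399, Prx of Schwann cells 417 to 626 and Sox9 of chondrocytes and other cells 536 to 907. Keratinocyte markers summed to 57.5 to 77.6 in controls and 43.6 to 97.3 with irinotecan, and skeletal muscle markers, with a median of 0.99 over 7 genes or 1.68 without irinotecan replicate 1, to 86.8 to 432 against 208 to 938. The sums were 575 to 784 against 543 to 920 for cartilage and bone, 244 to 409 against 106 to 370 for adipocytes, 550 to 717 against 515 to 737 for Schwann cells, and 219.8 to 307 against 206 to 389 for T cells. Without irinotecan replicate 1 the medians of the keratinocyte (2 tested), cartilage and bone (1), adipocyte (1), Schwann cell (3) and T cell (6) lists were 0.23, -0.13, -0.03, -0.18 and 0.31, against -0.00034, 0.08, -0.56, -0.02 and 0.17 with all libraries.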

How the data were processed

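The authors deposited 1 table of 25251 genes for 6 libraries, with a normalized signal per library, that is, read counts divided by 1 factor for each library. Values in every library were 100% whole multiples of 1 smallest step (tolerance 1e-06), so whole reads were recovered, 13940650 to 15656894 per library. The deposited log2 fold changes, p-values and adjusted p-values of the authors were not used here. The submitters' processing notes name DESeq2 1.20.0, featureCounts 1.5.0-p3, HISAT2 2.0.5, fastp and CASAVA, and the build GRCm38 (mm10), without their roles.

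Of these genes, 14639 passed a minimum mean of 10 normalized counts and were tested with limma 3.58.1 in R 4.3.3 on log2(normalized count + 1), with a mean-variance trend and group as the only term. The p-values were adjusted by Benjamini-Hochberg over all of them (threshold 0.05). Fold changes on that scale understate low genes. The p-values measure the spread between samples that may not be separate animals, and since no molecular identifiers are recorded, the floor of 3 reads covers counting error only. Alternatives were edgeR 4.0.16, DESeq2 1.42.0 and limma-voom on the recovered reads, other pseudocounts, filters, scalings and library weights, removal of a trend on GC content and length (GC from GENCODE M21, for 99.86% of genes), a replicate block, and leaving out each library. The tests were first checked on simulated counts. No 2 libraries of a group agreed within sampling noise. The chi-square over its degrees of freedom was 80.35 and 88.43 for the pairs with irinotecan replicate 1 and 10.76 to 13.96 for the other pairs. Collagen genes given in every library are those with a mean of at least 500, an unadjusted p under 0.05 or 1 of the 2 smallest p-values of a class. Partner genes named are the 3 with the smallest p-value per role, and defining markers. The members and lists were chosen with earlier results of these data known. An exact test of the summed collagen share, listed in the design, is not given, since it would be a score over chosen genes.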

Additional observations from a re-analysis of the deposited data

How the results depend on the processing

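The 6 libraries limit precision, and 7 of the 25 tested collagen genes changed sign without irinotecan replicate 1. Of the 25, 14 kept the sign of their log2 fold change under all alternatives run. Among 320 values of the other results, 291 lay within the margin set for no change. That margin was wide and allowed a change of sign. It held the fibrillar and FACIT medians without irinotecan replicate 1, at 0.07 and 0.31 against -0.31 and 0.02 with all libraries. The causes of the differences below were not tested. With DESeq2, 28 genes of the whole table were called higher and 19 lower, with library weights 30 and 22, and with DESeq2 without irinotecan replicate 1, chosen after seeing the data, 74 and 77. edgeR without that library called 2 higher. Genes at an unadjusted p under 0.05 numbered 844 with limma, 1347 without a filter, 1625 with library weights and 1372 with edgeR without irinotecan replicate 1. The type IV median was 0.20 without a filter, where more genes of low count enter. The processing and cross-linking median was -0.23 with the GC and length trend removed, the matrix partner median -0.15 with library weights, and the difference in type IV share -3.71 points per transcript length.

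With library weights, and with DESeq2 and edgeR without irinotecan replicate 1, the log2 fold change was 0.11, 0.10 and 0.10 for Col4a5, -0.16, -0.17 and -0.18 for Col4a4, 0.046, 0.12 and 0.12 for Col1a1, 0.13, 0.16 and 0.16 for Col6a2, 0.0064, 0.085 and 0.088 for Col7a1, and -0.37, -0.53 and -0.53 for Col23a1. Col11a2 had -0.085 with DESeq2 and -0.080 with edgeR.

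Leaving out each library in turn, genes called higher ranged from 0 to 2 and genes at an unadjusted p under 0.05 from 349 (without control replicate 1) to 1390.0 (without irinotecan replicate 1). Medians ranged from -0.33 to -0.15 for other collagen types, -0.15 to 0.10 for secretion, -0.56 to -0.26 for processing and cross-linking, -0.39 to -0.20 for matrix partners, -0.054 to 0.15 for receptors and -0.35 to -0.14 for degradation. The log2 ratio of Col4a1 to Col4a2 ranged from -0.038 to 0.11. Log2 fold changes ranged from -0.14 to 0.31 for Col16a1, -0.15 to 0.10 for Col4a5, -0.044 to 0.94 for Col4a4, -0.55 to 0.12 for Col1a1, -0.083 to 0.20 for Col5a1, -0.22 to 0.59 for Col11a2, -0.84 to 0.019 for Col27a1, -0.18 to 0.067 for Col8a1, -0.31 to 0.16 for Col6a2, -0.52 to 0.084 for Col7a1 and -0.40 to 0.48 for Col23a1.

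Deviations of same-numbered libraries from their group means correlated at -0.114, -0.009 and -0.213, and those of unlike number at -0.05 to 0.158. The outlying irinotecan replicate 1 enters the mean of its group and so all deviations there. Whether same-numbered samples share more than a number therefore cannot be told from these values. With the replicate block 0 genes were called and 621 had an unadjusted p under 0.05.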
